A study of Mus musculus with 8 samples.

Results

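3T3-L1 is a mouse line of fibroblast-like preadipocytes that stop dividing when they fill the dish and turn into fat cells when given hormones. Its differentiation stage and its quiescence stage are both regarded as states in which the cells have left the division cycle, and the comparison here asked how their transcripts differ. The stage labels chose the libraries: 2 of differentiation and 2 of quiescence, 4 of the 8 in the series. Differentiation cells were taken 6 days after a cocktail of insulin (5 µg/µl), dexamethasone (1 µM) and isobutylmethylxanthine (0.25 mM) was added. Per the labels the cocktail was left on for 48 h and insulin alone followed. Quiescence cells had been confluent for 48 h and had not had the cocktail. The other libraries, 2 of proliferation (exponential growth) and 2 of clonal expansion (10 h after the cocktail), helped to estimate the spread and appear below where named. All stages share the line, the strain label Swiss albino and medium with 10% fetal bovine serum. Hormones, days in culture and the fat cell state change together between differentiation and quiescence and cannot be told apart. In the titles the libraries of each stage are experiment 1 and 2, with no word on whether these were separate cultures; p-values then reflect the spread among these libraries alone, which may be technical. They also give no share of cells that had filled with fat, and in bulk RNA fewer cells of a type and less RNA per cell cannot be told apart.

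As background, confluent preadipocytes enter a reversible arrest in which the retinoblastoma-like pocket proteins and inhibitors of cyclin-dependent kinases hold back the E2F and mitotic genes. The cocktail drives 3T3-L1 cells through a short round of divisions, called clonal expansion, after which they arrest for good. During that passage C/EBPβ and C/EBPδ come first and switch on PPARγ and C/EBPα, which keep each other on and drive the genes of lipid storage, insulin response and hormone secretion. Preadipocytes lay down a matrix of fibrillar collagens and fibronectin and carry actin stress fibres, and factors such as the Notch-like protein DLK1 hold them back from becoming fat cells.

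Values are pseudo-counts, reads per gene that the authors scaled between libraries, and their totals were 148552972 and 149542130 in differentiation, against 127369893 and 125893531 in quiescence. On the log2(value + 1) scale replicates correlated across genes at 0.996 in differentiation and 0.993 in quiescence, with a median gap per gene of 0.13 and 0.21. The quiescence libraries parted by transcript length: replicate 2 minus replicate 1 had a median of -0.26 in the shortest of 5 equal classes of transcripts and 0.24 in the longest, where differentiation had -0.032 and 0.037. In a principal component analysis the leading axis took 60.5% of the variance and placed both differentiation libraries, at 155.7 and 151.7, apart from the other 6, at -66.1 to -39.2.

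Differentiation and quiescence differed in most genes tested. Of 14647 genes that averaged 10 or more pseudo-counts across the 8 libraries, limma called 9717 (66.3%) at an adjusted p under 0.05: 4892 (33.4%) were higher in differentiation and 4825 (32.9%) lower. With every library scaled to the same total the split was 3795 higher and 6314 lower, since the median of all genes, 0.006 (log2) on the deposited scale, was then -0.23. Changes below are therefore on the deposited scale, and a fold near 0 has no firm sign. In each of the 9717 called genes the libraries of the stages did not overlap, as held for 82% of all genes tested. Counts of list members that rose or fell between these stages are to be read beside the 33.4% and 32.9% of all genes.

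The rises reached further than the falls. Among called genes 1152 (7.87% of those tested) were at least 4-fold higher and 1051 (7.18%) at least 4-fold lower. At least 16-fold higher were 460 (3.14%) and lower 107 (0.731%), and at 64-fold the numbers were 203 (1.39%) and 4 (0.0273%). Genes that rose made up 57.5% and 56.9% of all pseudo-counts in the differentiation libraries, against 23.5% and 23.4% in the quiescence libraries. Genes that fell made up 18.6% and 19.3% in differentiation, against 48.8% and 47.9% in quiescence. The gene with the largest share of pseudo-counts was Scd1, the stearoyl-CoA desaturase that makes monounsaturated fatty acids, in both differentiation libraries (4.22% and 4.20%) and the collagen gene Col1a2 in both quiescence libraries (2.11% and 1.92%). In all, 99 genes (0.676%) had at least 200 pseudo-counts in both differentiation libraries and under 10 in both quiescence libraries, and 4 (0.0273%: Tnmd, Rxfp1, Siglecg and Fam180a) showed the opposite.

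**Figure D1:**
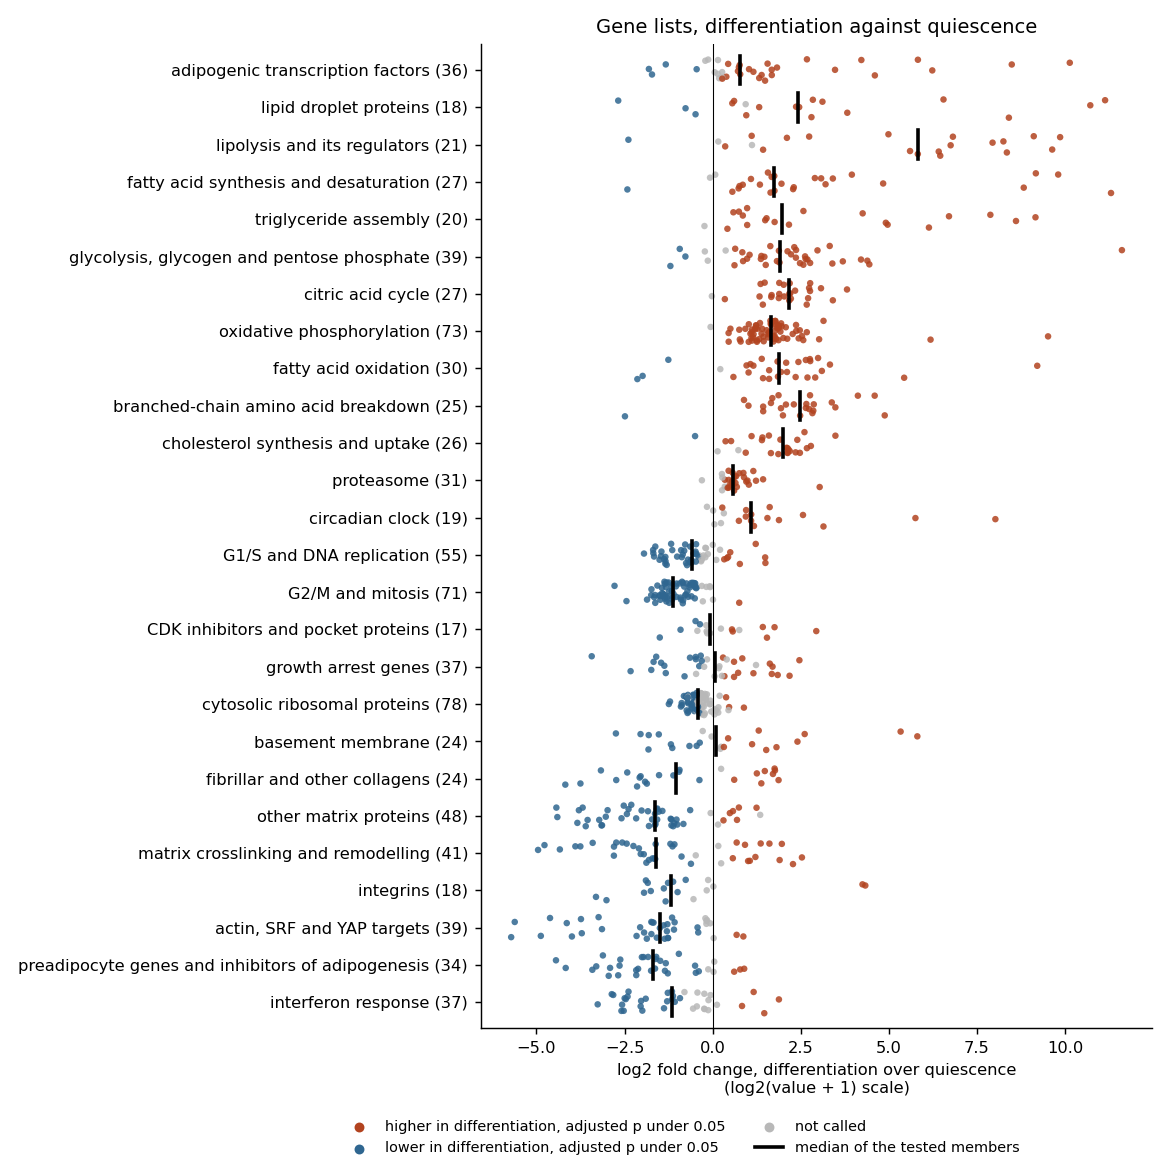
Log2 fold change of differentiation over quiescence (x axis) for the tested members of 26 gene lists (rows, number of members in brackets), each point 1 gene, coloured by its call, with the median as a black bar. Lipid and mitochondrial lists have medians right of 0, with 5.82 for lipolysis. Mitotic, matrix and actin lists have medians left of 0, with -1.11 for G2/M and mitosis, except basement membrane at 0.095.

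The genes of the division cycle come first, since both stages are regarded as arrested. Mitotic genes were lower in differentiation than in quiescence: of 71 tested members of the G2/M list, 64 fell and 1 rose (median log2 fold change -1.11), beside 32.9% and 33.4% of all genes. Mki67, whose protein marks dividing cells, had 6162 and 4998 pseudo-counts in the differentiation libraries, against 14127 and 14537 in the quiescence libraries (log2 fold change -1.37 ± 0.16, the error being limma's standard error here and below). Over the stages it averaged 44173 ± 9955 in proliferation, 14332 ± 289.8 in quiescence, 13476 ± 1631 in clonal expansion and 5580.4 ± 823 in differentiation (SD, n = 2 each). Differentiation held the least of its RNA, and quiescence lay near clonal expansion. Kif23, a motor of the midbody by which daughter cells part, had 516 and 492 in differentiation, against 4020.4 and 3001 in quiescence (log2 fold change -2.78 ± 0.19). Ndc80, which ties chromosomes to the spindle, had 309 and 289.6 in differentiation, against 1813 and 1471 in quiescence (log2 fold change -2.44 ± 0.20). Cyclin B1 (Ccnb1) had 1255 and 1118 in differentiation, against 2052 and 1505 in quiescence (log2 fold change -0.57 ± 0.22, adjusted p = 0.0437). Its partner kinase Cdk1 had 3701 and 3147 in differentiation, against 5554 and 4232 in quiescence (log2 fold change -0.51 ± 0.19, adjusted p = 0.0347), and neither call held without differentiation replicate 1 or 2 or without quiescence replicate 1 (log2 fold changes of -0.65 to -0.35 for Ccnb1 and -0.62 to -0.31 for Cdk1). With no filter on low values neither was called (adjusted p = 0.20 for Ccnb1 and 0.175 for Cdk1), nor without a mean-variance trend. The 1 member that rose was Ncapg2, a condensin subunit, with 4479.9 and 4458 in differentiation, against 2193 and 3202 in quiescence (log2 fold change 0.75 ± 0.20); it was not called without differentiation replicate 1 (0.75) or quiescence replicate 1 (0.48), nor with no filter on low values (adjusted p = 0.0881). By stage means 68 of the 71 members were lowest in differentiation and 65 were highest in proliferation. Set against the same 2 proliferation libraries, 71 members were lower in differentiation (all genes, 33.3%) and 70 were lower in quiescence (all genes, 11.8%), with medians of -2.51 and -1.50.

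**Figure D2:**
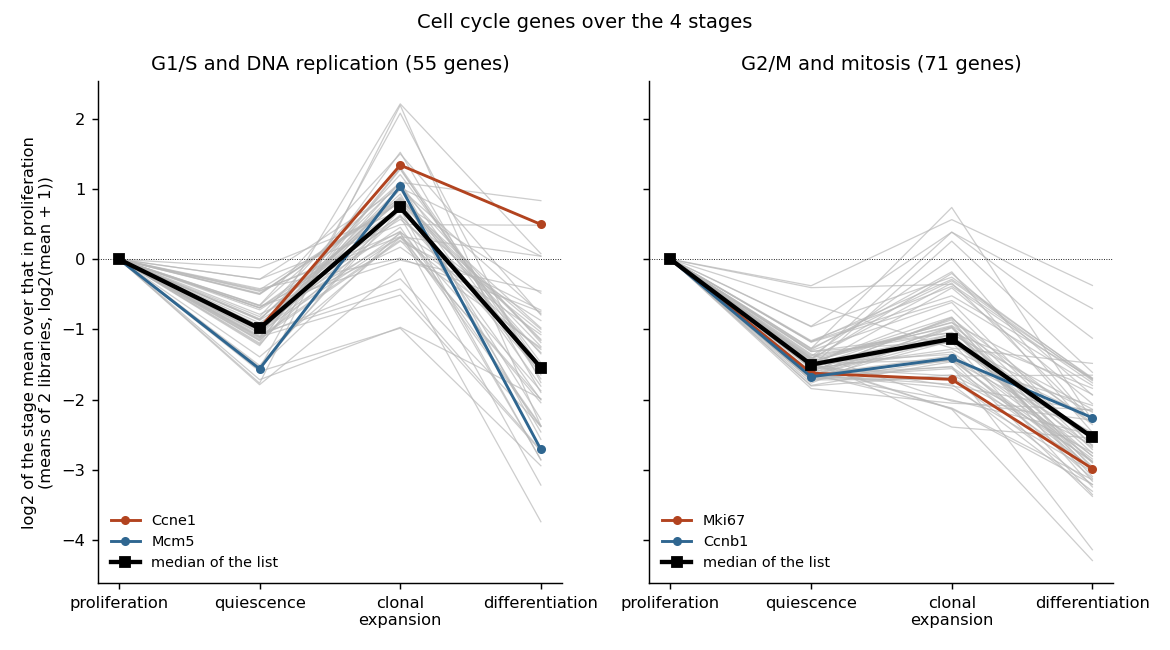
Log2 of each stage mean over the proliferation mean (y axis) across the 4 stages (x axis), each grey line 1 gene, the black line the list's median and 2 genes coloured per panel. The G2/M median steps down at quiescence and again at differentiation, and in the G1/S panel Ccne1 ends above its quiescence level while Mcm5 ends below it.

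Promoters of the mitotic list are shown for 2 members because they carry the letters known from this gene class. In such promoters a TTTGAA element, the core of the cell cycle homology region, and CCAAT boxes bound by NF-Y are known to take part in repression outside the dividing state. The stretches below come from RefSeq on build GRCm38.p6, run 5′ to 3′ towards the annotated start, and carry TTTGAA and CCAAT on the strand shown in capitals.
Ccnb2, chr9:70421555-70421746, minus strand: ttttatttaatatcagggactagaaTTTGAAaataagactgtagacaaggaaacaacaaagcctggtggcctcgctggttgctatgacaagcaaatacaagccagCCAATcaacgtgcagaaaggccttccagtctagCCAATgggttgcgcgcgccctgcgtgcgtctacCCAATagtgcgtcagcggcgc
Cdc20, chr4:118437344-118437421, minus strand: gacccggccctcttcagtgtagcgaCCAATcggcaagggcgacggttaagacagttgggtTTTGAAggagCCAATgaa
Ccnb2, a B-type cyclin, had 913 and 881 in differentiation, against 2337 and 1634 in quiescence (log2 fold change -1.12 ± 0.23), and Cdc20, which starts the break-up of the B cyclins, had 1748 and 1909 in differentiation, against 4733 and 3475 in quiescence (log2 fold change -1.15 ± 0.20). Searched on both strands over 250 bases before the start, TTTGAA stood in 35.6% and CCAAT in 69.5% of the 59 mitotic promoters found. The shares were 10.8% and 36.6% of 11440 promoters of tested genes, and 11.6% and 65.1% of 43 promoters of the G1/S list. In Ccnb2 TTTGAA began 167 bases before the start, upstream of CCAAT at 87, 54 and 21. In Cdc20 it began 18 bases before the start, between CCAAT at 53 and 8. These matches describe letters, not bound sites, and whether a match is the element of this gene class was not tested.

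Genes of DNA replication and S phase entry split. Of 55 tested members 35 fell and 8 rose (median -0.59); without differentiation replicate 1, or without quiescence replicate 2, 5 rose. Mcm5, part of the replicative helicase, had 3152 and 3542 pseudo-counts in the differentiation libraries, against 8006 and 6827 in the quiescence libraries (log2 fold change -1.15 ± 0.16). Pcna, the sliding clamp of the polymerases, had 3540.0 and 3624 in differentiation, against 6245 and 5620.4 in quiescence (log2 fold change -0.73 ± 0.14). The E2F repressors E2f7 and E2f8, themselves expressed in S phase, fell furthest with Chaf1b, at -1.95 ± 0.19, -1.68 ± 0.16 and -1.69 ± 0.18 on the log2 scale. Cyclin E1 (Ccne1), which with CDK2 opens S phase, went the other way with 6542 and 6502 in differentiation, against 2568 and 2097 in quiescence (log2 fold change 1.49 ± 0.17, adjusted p = 3.40e-05). Cyclin E2 (Ccne2) had 1063 and 1072 in differentiation, against 453 and 461 in quiescence (log2 fold change 1.22 ± 0.21). E2f2, an activating E2F, had 467 and 433 in differentiation, against 172 and 147 in quiescence (log2 fold change 1.50 ± 0.20). Differentiation thus had more RNA of both E cyclins and less of the helicase and clamp than quiescence. By stage means 44 of 55 members were lowest in differentiation and 11, the E cyclins and E2f2 among them, in quiescence.

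The D cyclins, which couple growth signals to CDK4 and CDK6, also parted. Ccnd1 had 7113 and 10551 pseudo-counts in the differentiation libraries, against 66974 and 57759.7 in the quiescence libraries (log2 fold change -2.84 ± 0.18, adjusted p = 3.48e-07). Ccnd2 had 207207 and 217202 in differentiation, against 105452 and 116301 in quiescence (log2 fold change 0.94 ± 0.11), the opposite direction. Cdk4 had 18922 and 19287 in differentiation, against 45458 and 36910.0 in quiescence (log2 fold change -1.10 ± 0.12).

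Single brakes of the cycle went both ways, and as a list they were called about as often as all genes or less. Of 17 tested CDK inhibitors, pocket proteins and their partners, 6 rose (35.3%) and 4 fell (23.5%), beside 33.4% and 32.9% of all genes, with a median of -0.071 that turned to 0.036 and 0.061 without either quiescence library. Cdkn2c, which encodes the CDK4 and CDK6 inhibitor p18, had 19570.2 and 24587 pseudo-counts in the differentiation libraries, against 2927 and 2788 in the quiescence libraries (log2 fold change 2.94 ± 0.13, adjusted p = 4.51e-08). Rb1, the retinoblastoma protein, had 8780.4 and 7528 in differentiation, against 2230.0 and 2596 in quiescence (log2 fold change 1.76 ± 0.12). Cdkn1a, which encodes p21, had 40178 and 41209 in differentiation, against 29909 and 25120.1 in quiescence (log2 fold change 0.57 ± 0.12). In the other direction Cdkn1b, the p27 gene known from contact-inhibited fibroblasts, had 6864 and 6819 in differentiation, against 12096 and 13694 in quiescence (log2 fold change -0.91 ± 0.098). Cdkn2b, the p15 gene induced by TGF-beta, had 4447 and 3921 in differentiation, against 12504 and 11155 in quiescence (log2 fold change -1.50 ± 0.11). Cdkn2a, the gene of p16 and ARF, had 26065 and 27078 in differentiation, against 40186 and 34424 in quiescence (log2 fold change -0.49 ± 0.11). Rbl2, the pocket protein p130 of resting cells, was not called, with 9404 and 8848 in differentiation, against 9426 and 11165 in quiescence (log2 fold change -0.17 ± 0.11, adjusted p = 0.195), and the 2 stages overlapped; it was called lower without quiescence replicate 1 (-0.29) and with equal totals (-0.40). Cdkn1c, an imprinted inhibitor, was scarce in both stages and not called, with 40.7 and 48.2 in differentiation, against 25.4 and 26.3 in quiescence (adjusted p = 0.192).

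Of 37 genes named for growth arrest 13 rose (35.1%) and 15 fell (40.5%), beside 33.4% and 32.9% of all genes, around a median of 0.056 that became -0.18 with equal totals and -0.035 without quiescence replicate 1. Tob1, an antiproliferative mRNA-decay factor, had 32607 and 34785 in differentiation, against 6287 and 5946 in quiescence (log2 fold change 2.46 ± 0.11). Ddit4, an inhibitor of mTORC1, had 31449 and 19950.5 in differentiation, against 5964 and 5105 in quiescence (log2 fold change 2.18 ± 0.19), with replicate 1 well above replicate 2 in differentiation. Gas2 and Gas1, both found as genes that fibroblasts switch on in growth arrest, fell. Gas2 had 1075 and 1472 in differentiation, against 14647 and 12578 in quiescence (log2 fold change -3.43 ± 0.19), and Gas1 had 30944 and 40394 in differentiation, against 105574 and 108920.2 in quiescence (log2 fold change -1.60 ± 0.14). Ndn, an E2F-binding protein, had 2342 and 2900.5 in differentiation, against 10338 and 7345 in quiescence (log2 fold change -1.74 ± 0.17).

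**Figure D3:**
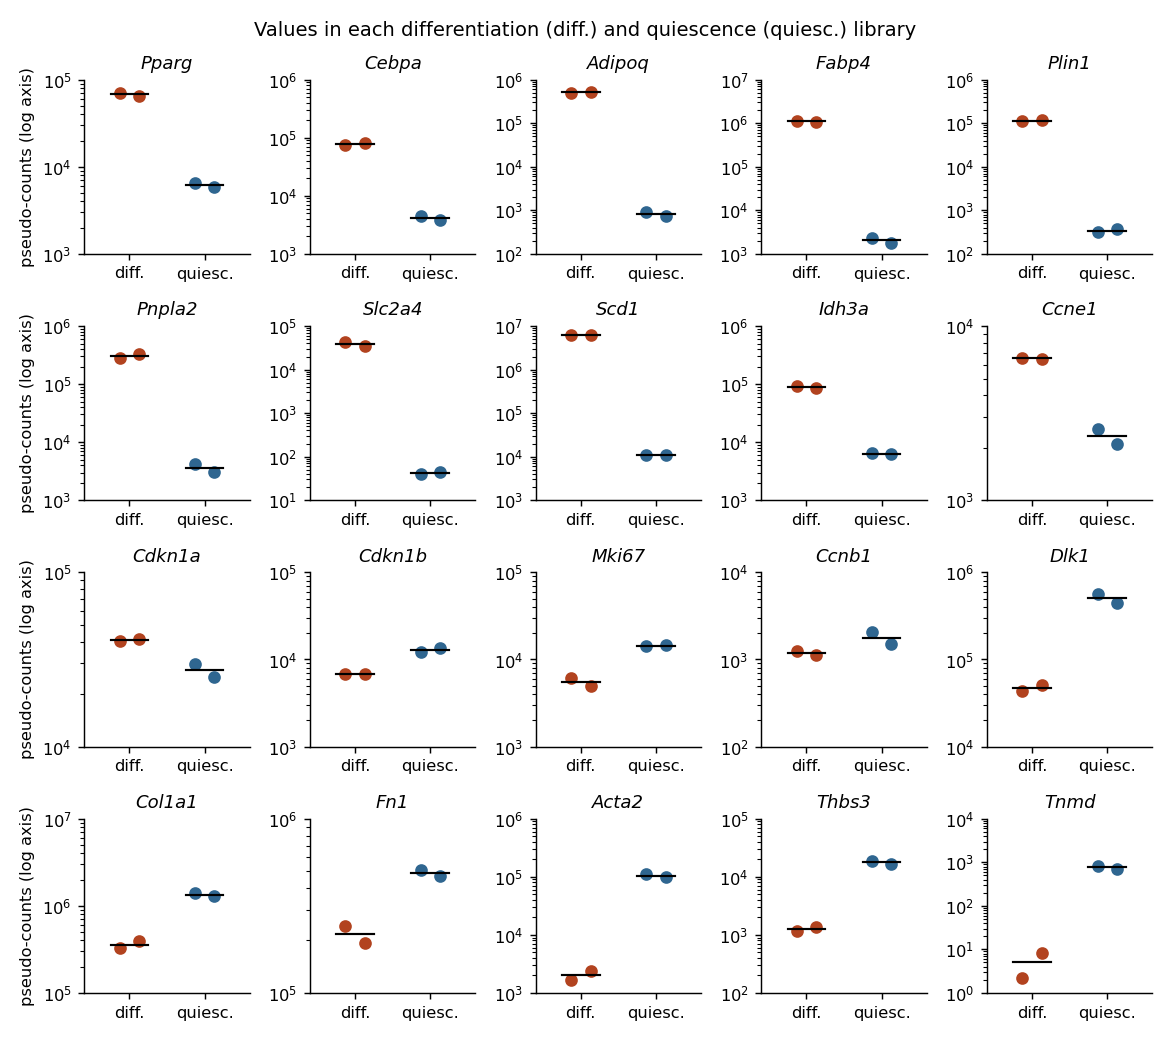
Pseudo-counts (y axis, log scale, own range per panel) of 20 genes in the 2 differentiation libraries (left, red) and the 2 quiescence libraries (right, blue), each point 1 library and each bar a stage mean. In no panel do the stages overlap; Ccne1 and Cdkn1a stand with the fat cell genes, and Cdkn1b, Mki67, Dlk1 and the matrix genes are higher in quiescence.

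The transcription factors of fat cell formation were mostly higher in differentiation, and the late ones by most. Of 36 tested, 24 rose and 4 fell (median 0.77). Pparg, the master regulator, had 71292 and 65599 pseudo-counts in the differentiation libraries, against 6455 and 5884 in the quiescence libraries (log2 fold change 3.47 ± 0.13, adjusted p = 1.58e-08). Cebpa, its partner in the final state, had 76421 and 80355 in differentiation, against 4576 and 3867 in quiescence (log2 fold change 4.22 ± 0.16). Both were already well expressed in confluent cells. Cebpb, which acts early, had 12069 and 11480.5 in differentiation, against 5478 and 4051 in quiescence (log2 fold change 1.32 ± 0.16). Cebpd, the other early factor, was not called (4977 and 4062 in differentiation, against 4462 and 3676 in quiescence; adjusted p = 0.368). Srebf1, the sterol and insulin responsive activator of lipid synthesis, had 24285 and 27084 in differentiation, against 11685 and 11340.1 in quiescence (log2 fold change 1.16 ± 0.10). The factors nearest to absent in confluent cells were Klf15, which had 19755 and 17929 in differentiation, against 12.1 and 20.5 in quiescence (log2 fold change 10.13 ± 0.34), and Mlxipl, the glucose-sensing factor ChREBP, which had 2406 and 2618 in differentiation, against 5.55 and 6.49 in quiescence. Those that fell were Klf4 (-1.81 ± 0.10), Ebf3 (-1.72 ± 0.11), Klf2 (-1.33 ± 0.29) and Klf3 (-0.45 ± 0.16, named after its value was seen, and not called under 9 of the 18 alternatives); Klf2 is known to restrain Pparg.

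Genes of the lipid droplet and of lipolysis rose by large factors. 14 of 18 droplet genes rose and 3 fell (median 2.41). Cidec, which fuses droplets into a single large one, had 476118 and 550539 pseudo-counts in the differentiation libraries, against 353 and 262 in the quiescence libraries (log2 fold change 10.71 ± 0.29). Plin1, the coat that gates lipases, had 109812 and 119876 in differentiation, against 313 and 364 in quiescence (log2 fold change 8.40 ± 0.17). Pnpla3, a droplet lipase relative, had 62656 and 68224 in differentiation, against 34.4 and 22.9 in quiescence (log2 fold change 11.13 ± 0.30). The droplet genes that fell were Plin3, a coat protein found in most cells (-0.77 ± 0.13), Lpcat2 (-2.68 ± 0.18) and Hsd17b11 (-0.49 ± 0.13). Of 21 lipolysis genes 18 rose and 1 fell. Pnpla2, the lipase that takes the first fatty acid off a triglyceride, had 278915 and 335529 in differentiation, against 4218 and 3049.8 in quiescence (log2 fold change 6.41 ± 0.17), and Lipe, the hormone-sensitive lipase that follows it, had 185158 and 199375 in differentiation, against 3507 and 3292 in quiescence (log2 fold change 5.82 ± 0.11). The receptors that tune lipolysis turned over with them. Adrb3, the fat cell adrenergic receptor, had 7322 and 9655 in differentiation, against 32.6 and 21.7 in quiescence (log2 fold change 8.25 ± 0.39). Gpr81 (Hcar1), the lactate receptor, had 14071 and 14639.9 in differentiation, against 18.6 and 15.7 in quiescence (log2 fold change 9.63 ± 0.37). Niacr1 (Hcar2), the niacin receptor, had 9695 and 7352 in differentiation, against 4.50 and 14.0 in quiescence. Adra2a, an adrenergic receptor that inhibits lipolysis, was the member that fell, with 208 and 311 in differentiation, against 1206 and 1485 in quiescence (log2 fold change -2.39 ± 0.21).

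Fatty acid synthesis and triglyceride assembly followed. Of 27 synthesis and desaturation genes 24 rose and 1 fell (median 1.75). Scd1 had 6271887 and 6282703 pseudo-counts in the differentiation libraries, against 11128 and 10682 in the quiescence libraries (log2 fold change 9.17 ± 0.11, adjusted p = 4.65e-11). Fasn, the fatty acid synthase, had 720036 and 830343 in differentiation, against 50448 and 49698 in quiescence (log2 fold change 3.95 ± 0.11). Thrsp, a thyroid and carbohydrate responsive protein of lipogenic tissue, had 87244 and 119623 in differentiation, against 43.7 and 35.7 in quiescence (log2 fold change 11.30 ± 0.32). Elovl3 had 2533 and 1751 in differentiation, against 1.92 and 0.902 in quiescence, while its relative Elovl7 was the member that fell, with 9.49 and 11.2 in differentiation, against 65.1 and 54.3 in quiescence (log2 fold change -2.42 ± 0.28). All but 1 of 20 triglyceride assembly genes rose (19) and none fell, or 1 without quiescence replicate 2 (median 1.96). Dgat2, which adds the last fatty acid, had 185361 and 199342 in differentiation, against 861 and 773 in quiescence (log2 fold change 7.88 ± 0.11). Gpd1, which makes the glycerol backbone, had 304978 and 471532 in differentiation, against 1028 and 919 in quiescence (log2 fold change 8.61 ± 0.22), and Pck1, which feeds it, had 14108 and 12407 in differentiation, against 27.0 and 18.1 in quiescence (log2 fold change 9.16 ± 0.31). For uptake and activation 14 of 20 rose and 4 fell. Fabp4, the fatty acid carrier, had 1145776 and 1095174 in differentiation, against 2359.7 and 1736 in quiescence (log2 fold change 9.11 ± 0.14). Lpl, the lipase of the vessel wall that fat cells secrete, had 2212340.2 and 2459331 in differentiation, against 132166 and 127003 in quiescence (log2 fold change 4.17 ± 0.15), so it was already abundant at confluence. The ones that fell included the receptor Lrp1 (-0.91 ± 0.16) and Slc27a3 (-1.40 ± 0.18).

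Secreted hormones of fat were among the strongest differences. Of 29 tested, 21 rose and 6 fell (median 2.89). Retn, the hormone resistin, had 108747 and 108875 pseudo-counts in the differentiation libraries, against 48.2 and 23.3 in the quiescence libraries (log2 fold change 11.62 ± 0.37). Adipoq, adiponectin, had 485712 and 532404 in differentiation, against 910.2 and 744 in quiescence (log2 fold change 9.27 ± 0.21). Cfd, the complement protease adipsin, had 365917 and 350608 in differentiation, against 415 and 198 in quiescence (log2 fold change 10.28 ± 0.36). Hp, haptoglobin, had 219539 and 226632 in differentiation, against 324 and 276 in quiescence (log2 fold change 9.54 ± 0.32). Among those that fell, Ccl2, a monocyte chemokine, had 282 and 263 in differentiation, against 7527 and 7168 in quiescence (log2 fold change -4.75 ± 0.19), Wisp2, a Wnt-induced inhibitor of fat cell formation, had 1577 and 1544 in differentiation, against 14002 and 9021 in quiescence (log2 fold change -2.85 ± 0.23), and Igf1, a growth factor, had 5460.0 and 5536 in differentiation, against 24498 and 28965 in quiescence (log2 fold change -2.28 ± 0.13). Lep, leptin, had 1784 and 2162 in differentiation, against 2.80 and 1.83 in quiescence, a level near that of single reads in quiescence, so its fold rests on the pseudocount. Its promoter is printed because it carries TTGCGCAA, the palindrome to which C/EBP proteins bind, in capitals here (RefSeq, GRCm38.p6).
Lep, chr6:29060141-29060220, plus strand: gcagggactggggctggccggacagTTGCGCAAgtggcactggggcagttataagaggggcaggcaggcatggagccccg
The palindrome began 55 bases before the start. It stood in 0.24% of the 11440 promoters, and in 0.34% of 876 promoters of genes called at least 4-fold higher.

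Of the glucose carriers named here, that of fat and muscle rose and that of dividing cells was not called. Slc2a4, the insulin-responsive carrier GLUT4, had 43082 and 35414 pseudo-counts in the differentiation libraries, against 40.6 and 45.5 in the quiescence libraries (log2 fold change 9.79 ± 0.22, adjusted p = 1.51e-09). Slc2a1, the carrier GLUT1 of dividing cells, was not called (29009 and 20535 in differentiation, against 24740.0 and 24749 in quiescence; adjusted p = 0.914). Insr, the insulin receptor, had 39699 and 41238 in differentiation, against 8896 and 12347 in quiescence (log2 fold change 1.95 ± 0.15). In the insulin list 19 of 34 rose (55.9%, beside 33.4% of all genes) and 6 fell (17.6%, beside 32.9%), or 11 with equal totals. Pde3b, the phosphodiesterase by which insulin curbs lipolysis, had 29654 and 26419 in differentiation, against 545 and 609 in quiescence (log2 fold change 5.60 ± 0.12). Akt1 fell, with 26655 and 30045 in differentiation, against 77136 and 64370.2 in quiescence (log2 fold change -1.32 ± 0.12), as did the receptor-binding inhibitors Grb10 (-1.26 ± 0.27) and Grb14 (-1.32 ± 0.16). Of 39 genes of glycolysis, glycogen and the pentose phosphate path 33 rose and 3 fell (median 1.90). Pfkfb3, which drives glycolysis, had 45566 and 55952 in differentiation, against 2379 and 2440.1 in quiescence (log2 fold change 4.39 ± 0.12), and Gbe1, the glycogen branching enzyme, had 25804 and 21021 in differentiation, against 1057 and 1080.5 in quiescence (log2 fold change 4.45 ± 0.13). Pygl, the liver-type glycogen phosphorylase, had 2759 and 3542 in differentiation, against 0 and 0 in quiescence, at least 1050.2-fold higher against a floor of 3 pseudo-counts per library. Eno3, the muscle enolase, fell, with 1791 and 1759 in differentiation, against 4404 and 3775 in quiescence (log2 fold change -1.20 ± 0.11).

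Mitochondrial genes rose nearly without exception. Of 73 oxidative phosphorylation genes 72 rose and none fell (median 1.65). Cycs, cytochrome c, had 2062 and 2128 pseudo-counts in the differentiation libraries, against 246 and 226 in the quiescence libraries (log2 fold change 3.15 ± 0.17). Cox7a1, a subunit isoform of heart, muscle and brown fat, had 2776 and 2366 in differentiation, against 41.8 and 28.1 in quiescence (log2 fold change 6.18 ± 0.28). Of 27 citric acid cycle genes 26 rose and none fell (median 2.17), led by Idh3a with 92717 and 85352 in differentiation, against 6499.7 and 6173 in quiescence (log2 fold change 3.81 ± 0.12). Mitochondrial ribosomal proteins rose by less: 70 of 76, with a median of 1.04, and the 1 that fell was Mrps6 (-0.45 ± 0.12), whose call was lost without differentiation replicate 2 (-0.43) and beside which another member fell without quiescence replicate 2. Fatty acid oxidation gained 26 of 30 and lost 3 (median 1.90). Crat, carnitine acetyltransferase, had 132289 and 112997 in differentiation, against 13554 and 10942 in quiescence (log2 fold change 3.33 ± 0.13). The gate of the pathway, Cpt1a, fell, with 5686 and 6666 in differentiation, against 13785 and 15701 in quiescence (log2 fold change -1.26 ± 0.11), and so did its brain form Cpt1c (-2.14 ± 0.11). Breakdown of branched-chain amino acids, a known fuel of lipogenesis in fat, rose in 24 of 25 (median 2.48). The isoforms of its first step, at similar levels in quiescence, parted: Bcat2, the mitochondrial enzyme, had 169986 and 166544 in differentiation, against 6308 and 5164 in quiescence (log2 fold change 4.88 ± 0.12), while Bcat1, the cytosolic one, had 1073 and 1053 in differentiation, against 6195 and 5746 in quiescence (log2 fold change -2.49 ± 0.12). In the brown fat list 12 of 16 tested rose and 2 fell, or 1 without quiescence replicate 2. Cox8b had 2051 and 2803 in differentiation, against 1.83 and 2.79 in quiescence. Ucp1, the uncoupler that defines brown fat, missed the filter at 11.5 and 7.24 pseudo-counts in differentiation, against 0 and 0.936 in quiescence.

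Sterol synthesis, protein folding and protein breakdown were higher in differentiation than in quiescence too. Of 26 cholesterol genes 23 rose and 1 fell (median 2.01). Set against proliferation, 23 were lower in quiescence (median -1.52; all genes, 11.8%). In differentiation 12 were higher and 7 lower than in proliferation (median 0.24; all genes, 34.5% and 33.3%). In clonal expansion 22 were lower than in proliferation (median -1.59; all genes, 32.1%). Quiescence and clonal expansion were thus both low stages, and differentiation lay near proliferation by the median. Sqle, squalene epoxidase, had 65892 and 59208 in differentiation, against 9524 and 8598 in quiescence (log2 fold change 2.79 ± 0.10). Insig1, a sterol-responsive brake on SREBP, had 62386 and 39947 in differentiation, against 4857 and 4102 in quiescence (log2 fold change 3.48 ± 0.19). Scap, the escort of SREBP, was the member that fell (-0.50 ± 0.10). CCAAT stood in 83.3% of the 18 promoters found for this list, beside 36.6% of the 11440, and the sterol element TCACCCCAC, searched in the same way, in 0 of the 18 and 0.48% of the 11440. Of 31 proteasome genes 26 rose and none fell, or 1 without quiescence replicate 2 (median 0.58), with Psma1 far above the others at 85935 and 76479.7 in differentiation, against 10813 and 9036 in quiescence (log2 fold change 3.04 ± 0.13). In the endoplasmic reticulum 19 of 31 rose (61.3%, beside 33.4% of all genes) and 2 fell (6.5%, beside 32.9%). Ero1l, the oxidase that forms disulfide bonds, had 249037 and 127391 in differentiation, against 5957 and 7588 in quiescence (log2 fold change 4.73 ± 0.25), and replicate 1 stood well above replicate 2 in differentiation. Xbp1, a regulator of secretory capacity, had 60897 and 54036 in differentiation, against 10423 and 8755 in quiescence (log2 fold change 2.59 ± 0.12). Among antioxidant enzymes 23 of 39 rose (59.0%, beside 33.4% of all genes) and 9 fell (23.1%, beside 32.9%). Mgst3 had 47453 and 41796 in differentiation, against 8178 and 7224 in quiescence (log2 fold change 2.53 ± 0.13). Nqo1, a quinone reductase, had 4180.3 and 4046 in differentiation, against 12278 and 12505 in quiescence (log2 fold change -1.59 ± 0.10).

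Genes of the translation machinery gave mixed counts that depend on scaling. Of 54 ribosome biogenesis genes 22 rose and 7 fell (median 0.21, or -0.021 with equal totals). The count of falls was 14 with equal totals, 1 without differentiation replicate 1, 3 without quiescence replicate 1 and 4 without either clonal expansion library. Npm1, a nucleolar chaperone, had 26583 and 24422 in differentiation, against 55109 and 47916 in quiescence (log2 fold change -1.01 ± 0.14). Of 78 cytosolic ribosomal proteins 35 fell and 3 rose (median -0.41). The falls numbered 59 with equal totals, 62 with the trend on transcript length removed and 21 without quiescence replicate 1, the rises 1 without differentiation replicate 1 or quiescence replicate 2. These genes are short and have many near-identical copies among which reads can be split, so single members are uncertain. Replication-dependent histones, another family of near-identical copies, had 10 rises and 1 fall in 20 tested, or 6 rises without differentiation replicate 2; the fall was lost without differentiation replicate 1 or quiescence replicate 2.

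The matrix of the confluent preadipocyte was mostly lower in differentiation, while the basement membrane list went both ways. Of 24 collagen genes outside the basement membrane list 15 fell (62.5%, beside 32.9% of all genes) and 8 rose (33.3%, beside 33.4%; median -1.03). Col1a1 had 325354 and 391835 pseudo-counts in the differentiation libraries, against 1397193 and 1301607 in the quiescence libraries (log2 fold change -1.92 ± 0.16). Col12a1, which decorates collagen fibrils under load, had 6988 and 8964 in differentiation, against 115796 and 177676 in quiescence (log2 fold change -4.18 ± 0.21), and Col3a1 had 817290.1 and 980873 in differentiation, against 1975773 and 1899541 in quiescence (log2 fold change -1.11 ± 0.18), a call lost with no filter on low values (adjusted p = 0.21). Col18a1, the source of endostatin, went up with 66092 and 55600.5 in differentiation, against 17623 and 17976 in quiescence (log2 fold change 1.77 ± 0.12). In the basement membrane list 10 of 24 rose and 10 fell (41.7% each, beside 33.4% and 32.9% of all genes). The sign of its median (0.095) turned with equal totals, quantile scaling and without differentiation replicate 2 or quiescence replicate 1. Col4a1, the network collagen that surrounds each fat cell, had 718138 and 784781 in differentiation, against 299883 and 307167 in quiescence (log2 fold change 1.31 ± 0.14). Lamb3, a chain of an epithelial laminin, rose (log2 fold change 5.33 ± 0.24), while Lama3, another chain of that laminin, fell (12.5 and 17.5 in differentiation, against 105 and 105 in quiescence; log2 fold change -2.75 ± 0.41). Lamb2 had 14423 and 13483 in differentiation, against 61632 and 53795 in quiescence (log2 fold change -2.05 ± 0.10).

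Of 48 other matrix proteins 39 fell and 6 rose (median -1.63); the rises numbered 3 without either differentiation library and 2 without quiescence replicate 2. Fn1, fibronectin, had 242983 and 192651 pseudo-counts in the differentiation libraries, against 505741 and 469971 in the quiescence libraries (log2 fold change -1.17 ± 0.15). Fmod, fibromodulin, had 213 and 391 in differentiation, against 6890.2 and 5688 in quiescence (log2 fold change -4.43 ± 0.25), and Thbs3, a thrombospondin, had 1159 and 1341 in differentiation, against 18955 and 16778 in quiescence (log2 fold change -3.84 ± 0.11). Prelp, which anchors basement membranes to the tissue beneath, had the largest rise among the members that were called, with 41682 and 40560.0 in differentiation, against 19029 and 15819 in quiescence (log2 fold change 1.25 ± 0.16). Among enzymes that crosslink or remodel the matrix 26 of 41 fell (63.4%, beside 32.9% of all genes) and 12 rose (29.3%, beside 33.4%). The protease Mmp9 had 193 and 308 in differentiation, against 7762 and 7403 in quiescence (log2 fold change -4.95 ± 0.23). The inhibitors of such proteases changed over: Timp3 had 253 and 265 in differentiation, against 6953 and 7236 in quiescence (log2 fold change -4.77 ± 0.13) and Timp4, the form known from fat, had 5150.1 and 4867 in differentiation, against 875 and 854 in quiescence (log2 fold change 2.53 ± 0.33).

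Adhesion and the actin cytoskeleton fell with the matrix. Of 18 integrins 12 fell and 2 rose (median -1.19), and the rises were the laminin receptors Itga6, with 73099 and 71978 in differentiation, against 3366 and 3859 in quiescence (log2 fold change 4.33 ± 0.12), and Itga7, with 12119.7 and 8596 in differentiation, against 560.4 and 511 in quiescence (log2 fold change 4.25 ± 0.21). Itga11, a collagen receptor, had 575 and 545 in differentiation, against 4679.8 and 4363 in quiescence (log2 fold change -3.01 ± 0.13). Of 39 actin genes and targets of SRF and YAP 31 fell and 2 rose (median -1.50). Acta2, smooth muscle actin and a mark of stress fibres, had 1639 and 2416 pseudo-counts in the differentiation libraries, against 110560.3 and 98995 in the quiescence libraries (log2 fold change -5.72 ± 0.18, adjusted p = 4.81e-09). Myl9, the light chain that lets myosin contract, had 300.3 and 616 in differentiation, against 13216 and 12098 in quiescence (log2 fold change -4.88 ± 0.26). Ankrd1, a target of YAP, had 12.6 and 7.25 in differentiation, against 538 and 497 in quiescence (log2 fold change -5.62 ± 0.34). The members that rose were Fhl1 (0.87 ± 0.15) and Wwtr1, the YAP relative TAZ (0.68 ± 0.10).

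Genes that mark preadipocytes or restrain fat cell formation fell in 28 of 34 cases and rose in 3 (median -1.69). Dlk1 had 43216 and 51599 pseudo-counts in the differentiation libraries, against 564051 and 448657 in the quiescence libraries (log2 fold change -3.41 ± 0.16, adjusted p = 4.88e-08). Gata2, a factor that represses Pparg, had 198 and 300.4 in differentiation, against 5381 and 5275 in quiescence (log2 fold change -4.45 ± 0.18). Id2, an inhibitor of helix-loop-helix factors, had 148 and 261 in differentiation, against 3387 and 3719.6 in quiescence (log2 fold change -4.17 ± 0.23), and Pdgfra, the receptor that marks fat progenitors, had 37386 and 50152 in differentiation, against 106606 and 133555 in quiescence (log2 fold change -1.46 ± 0.17). The members that rose were Tgfb1 (0.61 ± 0.11), Hoxc8 and Ddit3, which encodes the C/EBP antagonist CHOP. Ddit3 had 19217 and 10561 in differentiation, against 8609.6 and 6817 in quiescence (log2 fold change 0.89 ± 0.23), or 0.46 without differentiation replicate 1, and was not called with no filter on low values (adjusted p = 0.0843); Hoxc8 was not called without differentiation replicate 1 (0.66) or quiescence replicate 1 (0.74). In the Wnt pathway, which keeps cells preadipocytes, 23 of 36 fell (63.9%, beside 32.9% of all genes) and 6 rose (16.7%, beside 33.4%). Its secreted modulators went both ways: Sfrp2 had 1086 and 1739 in differentiation, against 37179 and 29290.3 in quiescence (log2 fold change -4.58 ± 0.20). Sfrp5, known from fat, had 106 and 193 in differentiation, against 21.5 and 15.7 in quiescence (log2 fold change 2.89 ± 0.49). Sfrp2 stayed above Sfrp5 in differentiation. Lef1, a transcription factor at the end of the pathway, rose (4228 and 4446 in differentiation, against 1586 and 1406 in quiescence; log2 fold change 1.54 ± 0.16). In the TGF-beta, BMP and activin pathway 22 of 40 fell (55.0%, beside 32.9% of all genes) and 9 rose (22.5%, beside 33.4%). Among its ligands and antagonists Inhba, activin A, had 159 and 135 in differentiation, against 767 and 1288 in quiescence (log2 fold change -2.76 ± 0.23), Grem1 had 150.4 and 91.7 in differentiation, against 5849 and 6369.8 in quiescence (log2 fold change -5.69 ± 0.20), and Nog, noggin, had 521 and 576 in differentiation, against 37.9 and 47.3 in quiescence (log2 fold change 3.66 ± 0.34).

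Growth factor and imprinted genes moved both ways. In the IGF axis 10 of 19 fell (52.6%, beside 32.9% of all genes) and 3 rose (15.8%, beside 33.4%). The count of rises was higher without differentiation replicate 1. Igf2, the fetal growth factor, was not called, with 69026 and 94462 in differentiation, against 54325 and 70440.4 in quiescence (log2 fold change 0.38 ± 0.18, adjusted p = 0.0851), but called higher without differentiation replicate 1 (0.61) or quiescence replicate 2 (0.57); the library type keeps no strand, so reads of its antisense partner cannot be told from its own. Igfbp4, a binding protein, had 131818 and 129200.2 in differentiation, against 60793 and 55734 in quiescence (log2 fold change 1.17 ± 0.18), and Igfbp3 had 1587 and 1323 in differentiation, against 4816 and 3855 in quiescence (log2 fold change -1.57 ± 0.15). Of 63 tested imprinted genes 21 rose (33.3%, as of all genes) and 28 fell (44.4%, beside 32.9%; median -0.28). H19, a growth-restraining noncoding RNA, had 357 and 594 pseudo-counts in the differentiation libraries, against 2639 and 3411 in the quiescence libraries (log2 fold change -2.70 ± 0.26). Mest, linked to fat cell size in mice, had 5117 and 4662 in differentiation, against 3342 and 2919.7 in quiescence (log2 fold change 0.64 ± 0.25, adjusted p = 0.0421), a call lost with no filter on low values (adjusted p = 0.205), with equal totals (0.41) and without any 1 of the 4 libraries (log2 fold changes of 0.55 to 0.74). Summed over the whole list the level was 698764 and 726751 pseudo-counts in differentiation, against 1319968 and 1223215 in quiescence, and Dlk1 is the largest part of the gap.

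Genes known to answer glucocorticoids were mostly higher in differentiation. Of 29 glucocorticoid genes 25 rose and 2 fell, or 1 without differentiation replicate 1 or quiescence replicate 1 (median 1.49). Orm1, an acute phase protein, had 17697 and 20973 pseudo-counts in the differentiation libraries, against 94.8 and 65.8 in the quiescence libraries (log2 fold change 7.91 ± 0.29). Lcn2, lipocalin, had 16541 and 12812 in differentiation, against 153 and 149.8 in quiescence (log2 fold change 6.58 ± 0.17). Steap4, a metalloreductase of fat, had 7678 and 8923 in differentiation, against 54.3 and 108 in quiescence (log2 fold change 6.74 ± 0.41). In the cAMP list 10 of 28 rose (35.7%, beside 33.4% of all genes) and 6 fell (21.4%, beside 32.9%); Rgs2, a brake on G protein signals, had 40097 and 36638 in differentiation, against 2357 and 2230.3 in quiescence (log2 fold change 4.06 ± 0.11) and Nr4a2 had 129 and 158 in differentiation, against 479.5 and 481 in quiescence (log2 fold change -1.74 ± 0.16). Of 19 clock genes 14 rose and none fell (median 1.09). Npas2, a partner of BMAL1, had 1847 and 1978 in differentiation, against 5.54 and 7.30 in quiescence. Rora had 4222 and 4218 in differentiation, against 269.7 and 842 in quiescence (log2 fold change 3.14 ± 0.41), with the quiescence libraries far apart: the value was 2.33 without quiescence replicate 1 and 3.96 without quiescence replicate 2. The labels give no time of day, and its part in the clock result was not tested.

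Interferon and chemokine genes were mostly lower in differentiation by count, and MHC and complement genes went both ways. Of 37 interferon genes 22 fell (59.5%) and 4 rose (10.8%), beside 32.9% and 33.4% of all genes (median -1.15). The list summed to 174115 and 180421 pseudo-counts in differentiation, against 181914 and 162616 in quiescence. Oasl2, an antiviral protein, had 117 and 87.6 pseudo-counts in the differentiation libraries, against 1096 and 875 in the quiescence libraries (log2 fold change -3.26 ± 0.34). Ifi44 had 88.7 and 81.9 in differentiation, against 579.7 and 638 in quiescence (log2 fold change -2.82 ± 0.27). Of 37 chemokine and inflammation genes 24 fell (64.9%) and 9 rose (24.3%). Their list summed to 444721 and 459050 in differentiation, against 399843 and 408899 in quiescence. Hp, given above with the secreted hormones, was a large part of the differentiation sum and almost none of the quiescence sum. The sums therefore do not speak for the other members. Among the falls, Cxcl5 had 249 and 329 in differentiation, against 7395 and 6764 in quiescence (log2 fold change -4.62 ± 0.19). Il1rl1, the IL-33 receptor, had 104 and 65.3 in differentiation, against 1636 and 1633 in quiescence (log2 fold change -4.29 ± 0.31). Of 21 MHC and complement genes 8 rose and 8 fell (38.1% each, beside 33.4% and 32.9% of all genes). This list summed to 1770559 and 1985492 in differentiation, against 262472 and 241072 in quiescence. Most of the differentiation sum came from C3 and Cfd, so it does not speak for the other members. Cfd had 365917 and 350608 in differentiation, against 415 and 198 in quiescence. C3, the central complement protein, had 1279949 and 1510945 in differentiation, against 78588 and 85276 in quiescence (log2 fold change 4.09 ± 0.14), and its peptide receptor C3ar1 had 2.10 and 1.03 in differentiation, against 88.7 and 75.1 in quiescence.

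Markers of the labelled cell type and of others were checked beside these lists. All 12 adipocyte markers rose (median 9.17) and all 10 fibroblast or preadipocyte markers fell (median -1.73). The first list summed to 3348734 and 3475909 pseudo-counts in differentiation, against 23199 and 19468 in quiescence. The second summed to 2032552 and 2372223 in differentiation, against 7664918 and 6944501 in quiescence, so these transcripts were reduced but not lost. Of 8 macrophage markers 4 were tested and 3 fell, with list sums of 771 and 752 in differentiation, against 5046 and 3839.8 in quiescence. The defining leukocyte gene Ptprc stayed under 3 pseudo-counts in all 4 libraries. Of 7 endothelial markers 4 were tested and all fell, with list sums of 184 and 149 in differentiation, against 421 and 427 in quiescence. Of 7 epithelial markers 4 were tested, of which 3 rose and 1 fell. Epcam was at or near 0 in all 4 libraries and Krt5, a keratin of basal epithelia, was at or near 0 in differentiation, against 27.3 and 29.1 in quiescence. Krt14, its partner, had 163 and 96.5 in differentiation, against 11.2 and 5.45 in quiescence. Krt18, a keratin of simple epithelia, had 1711 and 801 in differentiation, against 0.894 and 2.81 in quiescence, with replicate 1 above replicate 2 in differentiation, and its partner Krt8 had 107 and 55.1 in differentiation, against 1.81 and 4.48 in quiescence. Of 7 muscle markers 4 were tested, of which 3 rose and 1, Acta2, fell. Des, desmin, had 5571 and 4992 in differentiation, against 837 and 591 in quiescence (log2 fold change 2.90 ± 0.25) and Myh11, smooth muscle myosin, had 5291 and 4747 in differentiation, against 642 and 509.8 in quiescence (log2 fold change 3.13 ± 0.26). Of 7 bone and cartilage markers 5 were tested, of which 1 rose and 3 fell. Runx2 had 2737 and 2762 in differentiation, against 10767 and 13173 in quiescence (log2 fold change -2.12 ± 0.12), Sox9 had 1869 and 2229 in differentiation, against 13055 and 12064 in quiescence (log2 fold change -2.62 ± 0.11) and Col2a1 had 9.21 and 11.2 in differentiation, against 55.0 and 36.8 in quiescence. Ibsp, the bone sialoprotein, rose, with 51.5 and 51.1 in differentiation, against 0 and 1.88 in quiescence, and Sp7, a bone cell factor, was not called, with 62.5 and 58.9 in differentiation, against 30.1 and 39.4 in quiescence. Which cells carry these transcripts was not tested.

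The genes with the largest changes in either direction were not all of fat cell biology. Ghrh, the releasing hormone of growth hormone, had 8947 and 4044 pseudo-counts in the differentiation libraries, against 0 and 0 in the quiescence libraries, at least 2165-fold higher against the floor of 3 pseudo-counts per library. Ctcfl, the germ line relative of the insulator protein CTCF, had 1146 and 1257 in differentiation, against 0 and 0 in quiescence, at least 401-fold higher. The noncoding RNA 1300015D01Rik (Ctcflos), of the neighbouring gene, had 2114 and 2217 in differentiation, against 1.89 and 0 in quiescence. Tshr, the thyrotropin receptor, which fat cells also carry, had 4755 and 6739 in differentiation, against 1.91 and 5.43 in quiescence. O3far1 (Ffar4), a receptor for long-chain fatty acids, had 13731 and 8101 in differentiation, against 1.81 and 4.67 in quiescence. 1100001G20Rik (Wfdc21) had 8505 and 8969 in differentiation, against 6.57 and 1.77 in quiescence. With 1 read taken as about 1 pseudo-count, these genes lay within a few reads of 0 at confluence, and their fitted folds depend on the pseudocount. The largest falls included Tnmd, the tendon and fat protein tenomodulin, with 2.17 and 8.20 in differentiation, against 823 and 704 in quiescence. Rxfp1, the relaxin receptor, had 3.97 and 3.10 in differentiation, against 217 and 431 in quiescence. Fat2, an atypical cadherin, had 21.3 and 23.7 in differentiation, against 1059.7 and 1862 in quiescence (log2 fold change -5.91 ± 0.30). Rgs8, a brake on G protein signals, had 34.6 and 26.8 in differentiation, against 1774 and 1818 in quiescence (log2 fold change -5.84 ± 0.27). Fgd3, an exchange factor for CDC42, had 12.7 and 15.1 in differentiation, against 759 and 881 in quiescence (log2 fold change -5.79 ± 0.18). Pdgfb, a growth factor for mesenchymal cells, had 10.5 and 11.3 in differentiation, against 576 and 484 in quiescence (log2 fold change -5.47 ± 0.59), and Gdf6, a BMP relative, had 7.45 and 15.4 in differentiation, against 421 and 525 in quiescence (log2 fold change -5.33 ± 0.32).

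A comparison that shares no library with this one is that of clonal expansion, 10 h after the cocktail, with proliferation. Both are regarded as cycling stages, though 57 of 71 mitotic genes were lower in clonal expansion than in proliferation (all genes, 32.1%). It called 9500 genes (64.9%): 4792 higher in clonal expansion and 4708 lower. Of the genes higher in differentiation than in quiescence 2197 were also higher in clonal expansion than in proliferation, 44.9% of the first list and 45.8% of the second. Of all genes 32.7% were higher in clonal expansion and 33.4% in differentiation. Of the genes lower in differentiation 2362 were lower in clonal expansion as well, 49% and 50.2% of the lists. The shares of all genes were 32.1% lower in clonal expansion and 32.9% lower in differentiation. The difference of the 2 comparisons was tested as an interaction and called 8781 genes (60%), of which 2089 (14.3% of all genes) were called in opposite directions.

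**Figure D4:**
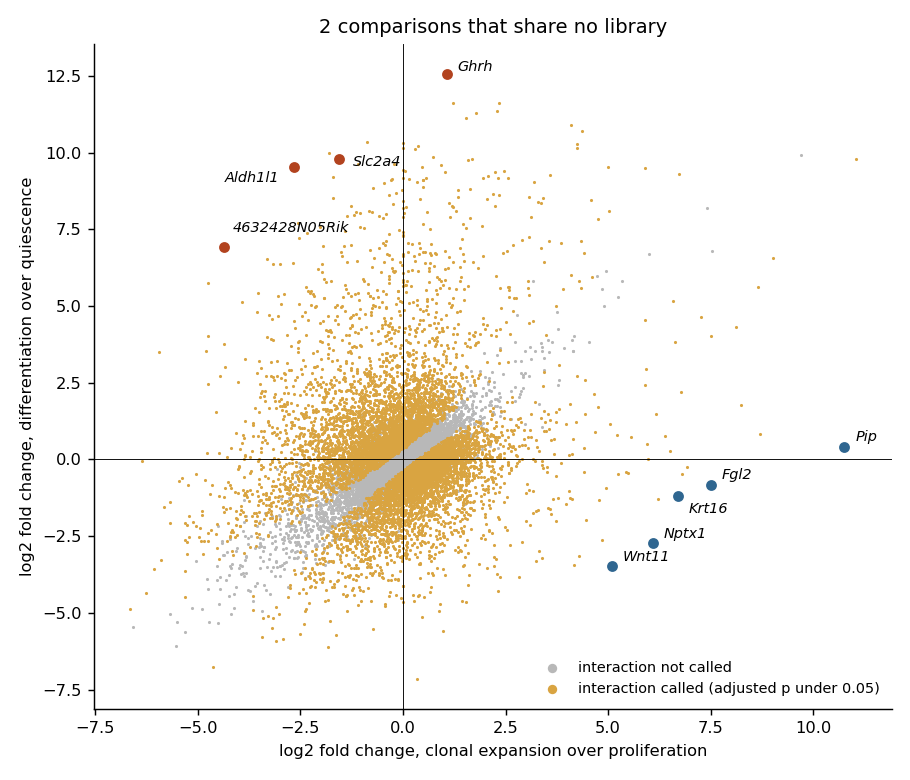
Log2 fold change of clonal expansion over proliferation (x axis) against that of differentiation over quiescence (y axis) for 14647 genes, coloured by the interaction's call, with 4 of the 5 largest positive (red) and the 5 largest negative (blue) interactions named. Slc2a4 and Aldh1l1 stand at the upper left and Pip at the far right, near 0 on the y axis.

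Several lists differed between the comparisons. For G1/S and DNA replication 40 of 55 members were higher in clonal expansion than in proliferation (all genes, 32.7%) and 3 lower (all genes, 32.1%), and 45 had a negative interaction (all genes, 29.9%). Ribosome biogenesis gave 53 of 54 higher in clonal expansion and 49 negative interactions. Mitotic genes fell in both comparisons, 57 of 71 in clonal expansion, with 11 positive and 10 negative interactions. Cholesterol genes went opposite ways: 22 of 26 were lower in clonal expansion than in proliferation, and 25 had a positive interaction (all genes, 30.1%). Oxidative phosphorylation had 66 positive interactions of 73. Interferon genes fell in both, 33 of 37 in clonal expansion. Glucocorticoid genes rose in both, 22 of 29 in clonal expansion.

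Single genes with large interactions include genes of glucose and one-carbon metabolism on one side. Slc2a4 had 13.1 and 16.2 in clonal expansion, against 52.3 and 39.0 in proliferation (interaction 11.36 ± 0.32). Aldh1l1, a folate enzyme, had 16250.2 and 17513 in differentiation, against 26.1 and 18.4 in quiescence, and 14.5 and 2.80 in clonal expansion, against 49.6 and 45.7 in proliferation (interaction 12.19 ± 0.73). Ghrh had 2.38 and 5.94 in clonal expansion, against 0.716 and 2.13 in proliferation (interaction 11.49 ± 0.74). 4632428N05Rik (Vsir), an immune checkpoint protein, had 20016 and 17517 in differentiation, against 166 and 139 in quiescence, and 0.75 and 3.46 in clonal expansion, against 58.2 and 54.3 in proliferation (interaction 11.29 ± 0.52). On the other side stood genes that peaked in clonal expansion. Pip, a secreted protein, had 2.13 and 4.11 in differentiation, against 3.76 and 0.876 in quiescence, and 9166 and 11492 in clonal expansion, against 2.12 and 10.3 in proliferation (interaction -10.33 ± 0.87). Fgl2, a prothrombinase of the fibrinogen family, had 20.1 and 27.8 in differentiation, against 35.1 and 51.1 in quiescence, and 2121 and 2536 in clonal expansion, against 13.5 and 10.1 in proliferation (interaction -8.33 ± 0.41). Wnt11 had 9.47 and 9.27 in differentiation, against 132 and 98.7 in quiescence, and 736 and 622 in clonal expansion, against 21.6 and 16.6 in proliferation (interaction -8.56 ± 0.38). The neuronal pentraxin Nptx1 had an interaction of -8.82 ± 0.75 and the keratin Krt16 of -7.89 ± 0.72. Where a stage lies within a few reads of 0, the size of the interaction depends on the pseudocount.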

How the data were processed

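RNA from 8 libraries of 3T3-L1 cells, 2 per stage, was extracted as total RNA, made into unstranded TruSeq libraries and read as single reads of 100 nt, per the labels' protocols. The deposited signal values are pseudo-counts per gene on the mouse build mm9, which the authors scaled between libraries with edgeR after CASAVA 1.8.2, per the submitters' processing notes and the file headers; the aligner and gene models are not given in the sources used here. They are not raw counts, so no count test was run. Of 22798 genes in the table, 66 share a symbol with another row. Genes that averaged 10 or more across libraries entered limma 3.58.1 (R 4.3.3) on log2(value + 1), with stage as the factor over all 8 libraries, a mean-variance trend, and Benjamini-Hochberg adjustment over 14647 genes at 0.05. This left 4 residual degrees of freedom. The code was also run on simulated data with normal noise and few changed genes, which cannot show how the test behaves on these data. A fold change on this scale understates the change of low genes. The worth of 1 read was taken as about 1 pseudo-count. Values near 1 had a median of 0.916 to 1.154 per library, but that window was itself set around 1. Limma's standard errors hold the spread between libraries. The library totals, 122413485 to 151529060, are of scaled values and do not give sequencing depth directly. The floor of 3 pseudo-counts covers counting error only.

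The members and the 51 gene lists were chosen with earlier results of these data known. Genes were named by rule: the 12 largest rises and falls (200 or more in the stage where higher), up to 3 each way per list, a set of well-known genes, and the 5 largest interactions each way. Some of these are not reported here. Any others are said to have been chosen after their values were seen; Ccnb2, Cdc20, Klf3, Siglecg and Fam180a are such, as are the further genes of the closing section. Experiment numbers recur across stages, the labels do not say whether they pair libraries, and the main fit did not pair them. Promoters and newer symbols came from RefSeq tables on GRCm38.p6 and transcript lengths from GENCODE vM21 (matched for 14381 genes). The alternatives were 18: pseudocounts of 0.5 and 5, no filter, a mean of at least 50, equal totals, quantile normalization, only the 4 libraries compared, a replicate block, no trend, the length trend removed, and each of the 8 libraries left out.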

Additional observations from a re-analysis of the deposited data

Results flagged for a closer look

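Differentiation against quiescence differed from clonal expansion against proliferation in 8781 genes by the interaction test (limma, adjusted p under 0.05), 4406 with a positive and 4375 with a negative difference. The interaction is the log2 fold change of differentiation over quiescence minus that of clonal expansion over proliferation. Large positive values were those of Aldh1l1 (12.19), Ghrh (11.49), Slc2a4 (11.36) and 4632428N05Rik (11.29), and the largest negative ones those of Pip (-10.33), Nptx1 (-8.82), Wnt11 (-8.56), Fgl2 (-8.33) and Krt16 (-7.89). Low levels in 1 or more stages make these sizes depend on the pseudocount.

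Of the other genes named above or under other observations, 38 were called in both comparisons in opposite directions and in the interaction. Each thus moved one way between differentiation and quiescence and the other way between clonal expansion and proliferation. Higher in differentiation and lower in clonal expansion were Adrb3 (9.52), Npas2 (9.07), Cyp27a1 (8.85), Lamb3 (7.51), Insig1 (5.66), Des (5.62), Itga7 (5.28), Timp4 (4.61), Rora (4.54), Myh11 (4.38), Mgst3 (4.08), Cdkn2c (3.84), Sqle (3.70), Rb1 (2.99), Fhl1 (2.81), Prelp (2.66), Ddit3 (2.23), Lef1 (2.11), Hoxc8 (1.74) and Wwtr1 (1.25). Npas2 belongs to the clock, Adrb3 to lipolysis, Insig1 and Sqle to sterol control, Cdkn2c and Rb1 to the brakes of the cycle, and Des and Myh11 to the muscle markers. Lower in differentiation and higher in clonal expansion were Il1rl1 (-6.60), H19 (-5.59), Id2 (-4.86), Dlk1 (-3.84), Wisp2 (-3.65), Ccnd1 (-3.54), Inhba (-3.49), Igfbp3 (-3.00), Bcat1 (-2.82), Chaf1b (-2.32), Mcm5 (-2.21), Nr4a2 (-2.17), Lrp1 (-2.11), Pcna (-2.05), Npm1 (-2.01), Akt1 (-1.83), Col3a1 (-1.78) and Scap (-0.99). Mcm5, Pcna and Chaf1b serve DNA replication, Ccnd1 cycle entry and Npm1 the nucleolus, while H19, Dlk1, Id2 and Inhba come from the imprinted, preadipocyte and activin lists. Shares of all genes called in opposite directions are 14.3%.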

How the results depend on the processing

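The count of genes called between differentiation and quiescence (9717) was 8911 to 10211 under the settings that kept all libraries or only the 4 compared, and 8234 (without differentiation replicate 1) to 9637 when 1 library was left out, where the lone library of a stage was assumed to vary like the others. Higher calls then numbered 4120 to 4862, lower calls 4114 to 4775, calls of at least 2-fold 4855 to 5148, and interactions 7526 to 9042, against 8781. With the experiment number as a replicate block 10068 genes were called, 5075 higher and 4993 lower, and 9142 interactions. Same-numbered libraries of differentiation and quiescence deviated together at r = 0.13 and those of other stage pairs at 0.01 to 0.35. These values do not settle whether the numbers pair libraries. Scaling moved the split of higher and lower calls from 50.3% higher to 37.5% (equal totals) and 44.0% (quantile normalization, 4410 and 5602). Of 204 named genes 185 kept direction and call under all 18 settings. Those that turned sign were not called: Cebpd with equal totals (-0.084), Slc2a1 with the length trend removed (0.053) and, with 1 library left out, Pip (-0.25 to 1.09) and Slc2a1 (-0.27 to 0.23). With no filter on low values Col3a1 and Col1a2 were no longer called (adjusted p = 0.21 and 0.0959), nor were Ccnb1, Cdk1, Mest, Ddit3, Klf3, Ncapg2 and Fgl2; the cause was not tested. With 2 libraries a stage, changes under about 0.22 (log2) were never called, and genes within about 3 reads of 0 in a stage have no firm fold.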

Other observations

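Some of the 99 genes with at least 200 pseudo-counts in both differentiation libraries and under 10 in both quiescence libraries are given here by their values. They were picked after those were seen, their separation follows from how the 99 were chosen, and no group among them was counted or tested. Mc5r, a melanocortin receptor, had 2703 and 3646 pseudo-counts in the differentiation libraries, against 3.02 and 4.50 in the quiescence libraries. Adora1, the adenosine receptor that inhibits lipolysis, had 863 and 855 in differentiation, against 1.83 and 3.33 in quiescence. Sucnr1, the succinate receptor, had 359.5 and 287 in differentiation, against 0 and 0.936 in quiescence, and Sctr, the secretin receptor, had 1662 and 1858 in differentiation, against 3.68 and 5.44 in quiescence. These sat near single reads in quiescence, so no fold is given. Irf4, a transcription factor of lymphocytes that fat cells also use in fasting, had 1006 and 781 in differentiation, against 5.58 and 4.60 in quiescence.

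Others of the 99 are enzymes and carriers. Gys2, the liver glycogen synthase, had 756 and 833 in differentiation, against 0.922 and 0.918 in quiescence. Cyp2e1, a cytochrome P450, had 486 and 535 in differentiation, against 0 and 0 in quiescence, and Cyp27a1, a sterol hydroxylase, had 407 and 379 in differentiation, against 2.97 and 0.284 in quiescence. Apoc4, an apolipoprotein, had 1058 and 1134 in differentiation, against 9.57 and 3.67 in quiescence, its neighbour Apoc2 had 629 and 644 in differentiation, against 9.22 and 4.16 in quiescence, and Hpd, an enzyme of tyrosine breakdown, had 1021 and 905 in differentiation, against 0.939 and 0 in quiescence.

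Calls were not spread evenly over chromosomes. On the X chromosome 26.1% of 490 tested genes were higher in differentiation and 40.8% lower, while on chromosome 6 the shares of 727 genes were 41.4% and 29.0%. By mean level the share called was 55.9% in the lowest of 5 equal classes of genes and 68.1% to 70.3% in the other 4. By transcript length the median log2 fold change ran from 0.14 in the shortest of 5 classes to -0.07 in the longest; the part of this trend in single results was not tested beyond the length-corrected fit.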
